A study of Homo sapiens with 6 samples.

Results

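The glucocorticoid receptor gene NR3C1 and 4 genes that the hormone-bound receptor is known to switch on (TSC22D3, FKBP5, PER1 and KLF9) were followed in a human T-cell leukaemia line. They are 5 of the 63677 genes in the deposited count table and were found there by symbol, each with a single Ensembl gene ID. The set was put forward with the results of doxycycline against solvent known, so their differences between the groups are given as a description. Counts of members past the threshold of a fit over all genes are given beside the share of all genes, and are not used as evidence.

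The cells were RPMI-8402, an established line of T-cell acute lymphoblastic leukaemia (T-ALL), stably expressing the nuclease Cas9 in both groups and grown in tetracycline-free serum. The 3 control libraries came from cells given the solvent DMSO, also with a time of 72 hours, and with the genotype labelled control. The 3 other libraries came from cells given doxycycline (DOX) for 72 hours to induce guide RNAs against MYC and MYCN, with the genotype labelled MYCN_knockout. The labels differ on the target: the series text names both genes, the treatment text MYC alone and the genotype MYCN alone. Whether the Cas9 line was a single clone, and whether libraries of a group were grown separately, is not stated in the labels. The p-values given for other genes therefore reflect variation among these libraries, which could be technical. Cells given DOX without guides were not analysed here, and an effect of the drug cannot be told apart from an effect of the guides. No glucocorticoid treatment is named in the labels.

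The glucocorticoid receptor is a transcription factor held in the cytoplasm by chaperones of the HSP90 machinery until it binds cortisol or a drug such as dexamethasone. It then enters the nucleus and binds glucocorticoid response elements, often far from the promoters of the genes it regulates. In lymphoid leukaemia, glucocorticoids kill many cells and are part of standard therapy, and the level of the receptor is one determinant of sensitivity. The 4 response genes differ in role: TSC22D3 encodes GILZ, an anti-inflammatory leucine zipper protein, FKBP5 encodes a cochaperone that lowers the receptor's affinity for hormone, PER1 encodes a repressor of the circadian clock, and KLF9 encodes a zinc finger transcription factor.

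The bases just upstream of the start sites show which short motifs lie next to these genes. RefSeq (GRCh38.p14) lists 15 promoter windows for the 5 genes, each of 300 bases: 7 for NR3C1, 4 for TSC22D3, 2 for FKBP5, and 1 each for PER1 and KLF9. The full glucocorticoid response element, taken as the arm AGAACA, any 3 bases and the arm's reverse complement TGTTCT, was in none of the 15 windows and in 1 of 35116 RefSeq promoter windows of the same length (0.00285%). That arm alone, on either strand, was in 1 of the 15, at the second FKBP5 start, and in 14.8% of all promoters. The E-box CACGTG, the motif bound by MYC family proteins and by clock factors, was in 2 windows, of FKBP5 and PER1, against 7.26% of all promoters. The FOXO motif GTAAACA was in 2 windows, of TSC22D3 and NR3C1, against 3.42% of all. These counts describe letters only, and nothing about binding was measured. The upstream 250 bases of the 4 windows that hold an E-box or a FOXO motif are printed 5′ to 3′ on the strand of the gene, with the motif in capitals. All 4 genes lie on the minus strand. The E-box starts 227 bases before the FKBP5 start and 173 bases before the PER1 start, and the FOXO motif, which reads TGTTTAC here because it lies on the opposite strand, starts 147 bases before the TSC22D3 start and 59 bases before the NR3C1 start.
FKBP5, chr6:35688916-35689165: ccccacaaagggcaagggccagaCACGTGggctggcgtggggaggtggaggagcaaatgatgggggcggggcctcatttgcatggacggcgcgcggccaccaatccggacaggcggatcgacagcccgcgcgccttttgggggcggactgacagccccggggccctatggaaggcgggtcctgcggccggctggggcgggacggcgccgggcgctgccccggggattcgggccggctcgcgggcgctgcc
PER1, chr17:8152405-8152654: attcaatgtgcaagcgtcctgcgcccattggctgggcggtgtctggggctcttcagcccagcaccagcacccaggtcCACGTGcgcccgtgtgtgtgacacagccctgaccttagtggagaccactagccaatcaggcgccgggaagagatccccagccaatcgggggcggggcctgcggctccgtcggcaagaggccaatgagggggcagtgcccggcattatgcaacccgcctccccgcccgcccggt
TSC22D3, chrX:107717063-107717312: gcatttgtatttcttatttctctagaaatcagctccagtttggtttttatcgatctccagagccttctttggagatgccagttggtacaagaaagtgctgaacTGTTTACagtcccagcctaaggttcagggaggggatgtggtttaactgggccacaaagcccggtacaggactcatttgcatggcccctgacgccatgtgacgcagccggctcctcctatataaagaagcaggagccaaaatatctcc
NR3C1, chr5:143403284-143403533: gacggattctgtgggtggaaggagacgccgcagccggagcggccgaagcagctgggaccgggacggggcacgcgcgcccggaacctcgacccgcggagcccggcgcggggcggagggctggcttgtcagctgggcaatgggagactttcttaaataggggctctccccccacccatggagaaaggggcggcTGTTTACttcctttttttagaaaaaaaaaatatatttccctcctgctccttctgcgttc
Of the general promoter elements, the GC box GGGCGG was in 10 of the 15 windows (45% of all promoters) and the CCAAT box was in 7 (34.6% of all). The core TGACG of the cyclic AMP response element was in 6 (24.6% of all), and the full element TGACGTCA, which contains that core, was in none (1.85% of all). Each was searched on both strands.

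Libraries are named by group and by the number in their count column: DMSO 11, 23 and 35, and DOX 12, 24 and 36. Totals were 28602145 to 29204148 counts per library. The control library DMSO 11 stood apart: the mean chi-square per gene against DMSO 23 and DMSO 35 was 81.5 and 70.9, against 13.6 between those 2 and at most 5.34 between DOX libraries. MYCN in DMSO 11 was the lowest of the DMSO libraries but above each DOX library, and MYC was highest there. Whether the label of DMSO 11 is right could not be settled, and every DMSO mean and fold change that includes it rests on that label. Values of the 5 members and of most named pathway genes are therefore given with and without DMSO 11. Of the targeted genes, MYCN was at 76.8 to 109.5 CPM (counts scaled to a common library total) in DMSO and 46.2 to 53.7 in DOX, or -0.87 ± 0.13 (SE) as log2 fold change (adjusted p of 0.0726 by edgeR and 7.92e-06 by DESeq2). MYC was at 201 to 279 CPM in DMSO and 193 to 206 in DOX (-0.30 ± 0.12, adjusted p of 0.176 by edgeR and 0.147 by DESeq2). The 10 T-cell leukaemia markers, of which CD3E and CD3D had the highest levels, summed to 1320 to 1451 CPM in every library. They were not all present or steady. LMO2 was below the filter, with 9 counts in all libraries together. CD2 was at 19.6, 5.35 and 6.96 CPM in DMSO 11, 23 and 35 and 13.5 to 15.5 in DOX. DESeq2 called PTCRA and LMO1 lower in DOX and none higher, against 10.2% of all genes called, and edgeR called none. The lists for B cells (5.22 to 6.99 CPM), myeloid cells (0.947 to 1.98 CPM) and erythroid cells (at most 0.0357 CPM) were near 0. The fibroblast list was at 2.71 and 3.18 CPM in DMSO 23 and DMSO 35, 7.40 in DMSO 11 and 9.49 to 10.2 in DOX. That difference lay in COL1A1, while COL1A2 and COL3A1 were at or near 0, and its part in the results was not tested.

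NR3C1 (ENSG00000113580, chromosome 5), the receptor itself, was read at 55.9 CPM in DMSO 23, 51.9 in DMSO 35 and 28.0 in DMSO 11. The DOX libraries read 28.5, 28.1 and 28.7 CPM. The groups overlapped, because DMSO 11 was at the DOX level. The group means were 45.3 ± 15.1 CPM in DMSO and 28.4 ± 0.317 in DOX (SD, n = 3 each), and the log2 fold change of DOX over DMSO was -0.67 ± 0.22 (SE). Without DMSO 11 it was -0.93 ± 0.07, and of the DOX mean over DMSO 11 alone it was 0.02. In bulk RNA, fewer cells with the transcript and less transcript per cell cannot be told apart, for this gene as for the others.

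TSC22D3 (ENSG00000157514, chromosome X) had the widest differences of the 5. It was read at 238 CPM in DMSO 23 and 207 in DMSO 35, and at 45.5 in DMSO 11. The DOX libraries read 37.3, 40.4 and 41.0 CPM, all below each DMSO library, but close to DMSO 11. The means were 163.5 ± 103 CPM in DMSO and 39.6 ± 1.99 in DOX (SD, n = 3 each), a log2 fold change of -2.05 ± 0.50 (SE). The mean of DMSO 23 and DMSO 35 was 5.63-fold that of DOX, and DMSO 11 was at 20.4% of that mean. The fold change was -2.49 ± 0.07 without DMSO 11 and -0.20 for the DOX mean over DMSO 11 alone.

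FKBP5 (ENSG00000096060, chromosome 6) was the member with the highest counts and the one in which DMSO 11 resembled the other controls. It was read at 303, 311 and 346 CPM in DMSO 11, 23 and 35 and at 256, 270 and 255 CPM in DOX 12, 24 and 36. The groups did not overlap, and the spread within each was small. The means were 320.0 ± 22.7 CPM in DMSO and 260.5 ± 8.57 in DOX (SD, n = 3 each), a log2 fold change of -0.30 ± 0.09 (SE) with all libraries, -0.34 ± 0.07 without DMSO 11 and -0.22 against DMSO 11 alone.

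PER1 (ENSG00000179094, chromosome 17) was read at 63.7, 99.8 and 100.5 CPM in DMSO 11, 23 and 35. The DOX libraries, at 84.5, 76.5 and 77.7 CPM, lay between DMSO 11 and the other controls, so the groups overlapped. The means were 88.0 ± 21.1 CPM in DMSO and 79.6 ± 4.34 in DOX (SD, n = 3 each), and the log2 fold change of -0.14 ± 0.16 (SE) was smaller than its error. It was -0.33 ± 0.07 without DMSO 11. Against DMSO 11 alone the direction turned, with the DOX mean higher by 0.32 on the log2 scale.

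KLF9 (ENSG00000119138, chromosome 9) was the least expressed. It was read at 3.18, 7.15 and 5.88 CPM in DMSO 11, 23 and 35 and at 2.49, 2.52 and 2.92 CPM in DOX 12, 24 and 36. These rest on 89, 211 and 174 counts in DMSO and 72, 72 and 84 in DOX. The DOX libraries were below each DMSO library, but the 95% Poisson interval of the DMSO 11 count, 71.5 to 109.5, which covers counting error only, contains all 3 DOX counts. The means were 5.40 ± 2.03 CPM in DMSO and 2.65 ± 0.239 in DOX (SD, n = 3 each), a log2 fold change of -1.03 ± 0.28 (SE). It was -1.30 ± 0.15 without DMSO 11 and -0.26 for the DOX mean over DMSO 11 alone.

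**Figure D1:**
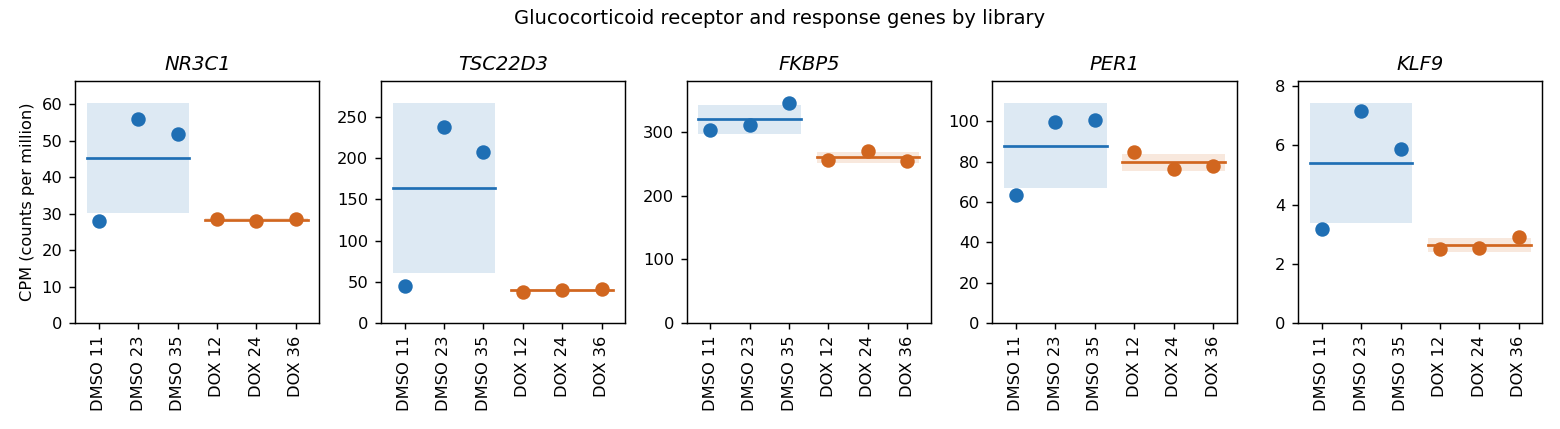
CPM (y axis, from 0, a scale of its own for each gene) of the 5 genes in the 3 DMSO libraries (blue) and the 3 DOX libraries (orange); points are libraries, lines group means and shaded bands 1 SD to each side. DMSO 11 lies at or near the DOX level for NR3C1 (28.0 CPM), TSC22D3 (45.5) and KLF9 (3.18), below it for PER1 (63.7) and above it for FKBP5 (303).

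Across the 5 genes, DMSO 11 was the lowest DMSO library in all 5, as it was for 43.8% of all tested genes. It was nearer to the DOX mean than to the mean of the other DMSO libraries in 4 of 5, all but FKBP5, against 69.4% of all tested genes. For 3 of 5 (TSC22D3, FKBP5 and KLF9) every DOX library was below every DMSO library, against 15.6% of all tested genes. The set was chosen on this contrast, so nothing is read from these counts.

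The spread within the DMSO group differed greatly between members. The log2 range over the 3 DMSO libraries was 2.38 for TSC22D3, wider than for 99.7% of the 13389 genes with at least 1 CPM on average, 1.15 for KLF9 (95.5%), 0.997 for NR3C1 (93.0%), 0.66 for PER1 (80.1%) and 0.19 for FKBP5 (20.1%). Within the DOX group the ranges were 0.14, 0.22, 0.03, 0.14 and 0.08 in the same order. The DOX libraries of NR3C1 were thus closer together than those of most genes, since only 4.52% of genes had a smaller range there. Their counts were 823, 801 and 824, and the 95% Poisson interval of each, which covers counting error only, contains the others. The differences among them are thus within counting error, and nothing is read from their closeness.

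**Figure D2:**
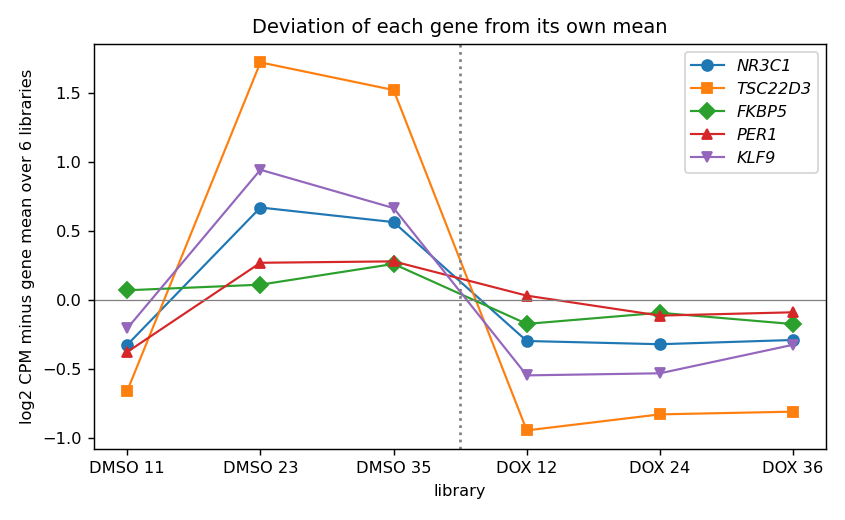
Log2 CPM of each gene minus its own mean over the 6 libraries (y axis), by library (x axis); lines join the points of a gene and a dotted line parts the DMSO from the DOX libraries. DMSO 23 and DMSO 35 are the highest libraries for each gene, with DMSO 11 close to them only for FKBP5, and TSC22D3 has the widest range (2.38 within DMSO).

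By edgeR's quasi-likelihood test adjusted over all genes, none of the 5 members passed the threshold of 0.05, against 0.0313% of all tested genes. At an unadjusted p under 0.05 there were 4 of 5, against 26% of all. By voom the count was 0 of 5 as well. DESeq2 called 4 of 5, all lower in DOX and all but PER1, against 7.05% of all genes called lower. Without a filter on low counts, edgeR called 1 of 5 (KLF9), against 5.56% of the genes it then tested. The authors' deposited table has the same 4 genes under 0.05 and lower, against 6.61% of its genes. It gives log2 fold changes of -0.68 for NR3C1, -2.05 for TSC22D3, -0.30 for FKBP5, -0.15 for PER1 and -1.03 for KLF9. With DMSO 11 left out, edgeR called all 5 lower, against 25.7% of all genes. With any other single library left out, both edgeR and DESeq2 called 0 of 5, against 0% of all genes by edgeR and 0.832% to 1.26% by DESeq2. The choice of the set used this contrast, so these counts are no support for it.

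**Figure D3:**
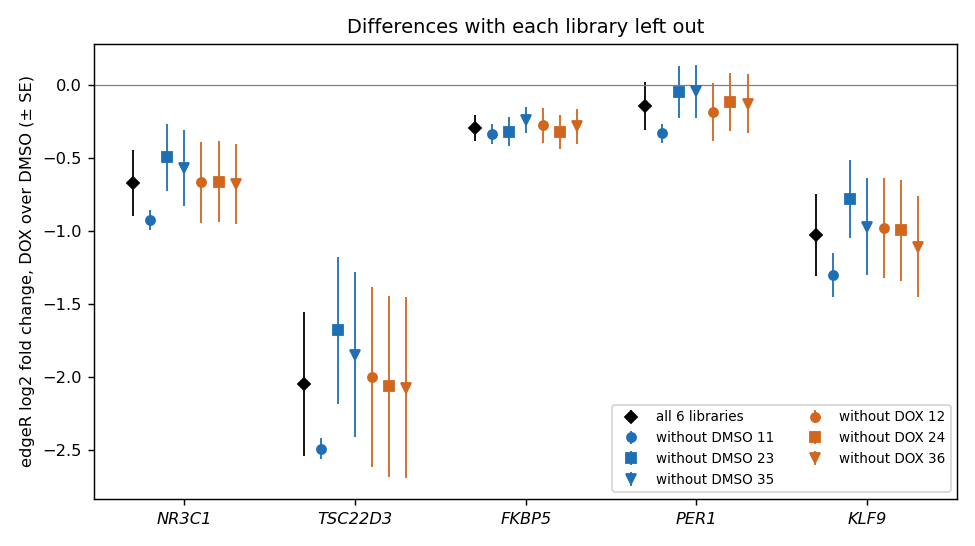
EdgeR log2 fold change of DOX over DMSO (y axis) of the 5 genes with all 6 libraries (black) and with each library left out in turn (blue for DMSO, orange for DOX); bars are 1 SE to each side. Without DMSO 11 every gene is farther below 0 and has a shorter bar, for example TSC22D3 at -2.49 ± 0.07 against -2.05 ± 0.50 with all libraries.

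Levels between genes were compared as CPM per kilobase of exon. In DOX the order was FKBP5 (24.5 CPM per kilobase), PER1 (11.4), TSC22D3 (8.30), NR3C1 (3.10) and KLF9 (0.511), with no overlap between the ranges of neighbours. In DMSO the means were 34.3 for TSC22D3, 30.1 for FKBP5, 12.6 for PER1, 4.94 for NR3C1 and 1.04 for KLF9. TSC22D3 ran from 9.55 to 49.9 there and overlapped FKBP5 (28.5 to 32.5) and PER1 (9.09 to 14.3), so its place in the DMSO order depends on the library. The level of FKBP5 was above that of 87.1% of 12256 protein-coding genes in DMSO and 83.9% in DOX, that of NR3C1 above 42.6% and 34.5%, and that of TSC22D3 above 89.1% and 56.4%. KLF9 stood above 20.5% and 13.9%. At most 1.49% of the exonic length of a member overlapped another annotated gene, that of NCBP2L over TSC22D3, which held 1 count in all libraries together.

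The genes whose profiles over the 6 libraries were nearest to each member were found by the root mean square difference of centred log2 CPM, among genes with at least 10 CPM on average. For NR3C1 these were NIPAL3 (0.03), DLG4 (0.04) and SLC9A8 (0.04), and for FKBP5 they were NKRF (0.02), BCL11B (0.03) and DCLRE1A (0.03). PER1 had ELOVL4, HHIP-AS1 and CACNB1, each at 0.05, and KLF9 had SMIM19 (0.04), LINC00263 (0.05) and CCT6P1 (0.07). The nearest to TSC22D3 were farther away: H1F0 (0.16) and EPB41L4A-AS1 (0.17), then TREML2 (0.22). H1F0, a linker histone gene, was read at 122, 626 and 435 CPM in DMSO 11, 23 and 35 and at 97.2, 119 and 122 in DOX 12, 24 and 36. Among the members, NR3C1 and KLF9 had the most alike profiles (0.19) and TSC22D3 and FKBP5 the least alike (1.02).

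The rest of the pathway was described from 10 lists holding 158 genes, of which 120 were tested. EdgeR called none of them, with 30 (25%) at an unadjusted p under 0.05, against 26% of all genes, and voom called none. DESeq2 called 16, or 13.9% of those given an adjusted p (10.2% of all genes), 9 higher and 7 lower in DOX. EdgeR without DMSO 11 called 70 (58.3%, against 49.4% of all genes), 33 higher and 37 lower. Leaving out any other single library, DESeq2 called 3 or 4 of the 120, against 0.832% to 1.26% of all genes. ANXA1, TXNIP and NR1D2 were called in all 6 DESeq2 fits with 1 library left out, KLF10 in 2 of the 6, and the other 12 of the 16, once a library was left out, only without DMSO 11.

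Of 39 further genes known to be induced by glucocorticoids in various cell types, 29 were tested, with a median log2 fold change of -0.04 (-0.0031 over all tested genes). DESeq2 called 3 higher and 1 lower, against 10.2% of all genes called. The one lower was TXNIP, which encodes an inhibitor of thioredoxin and of glucose uptake. TXNIP was read at 132, 397 and 364 CPM in DMSO 11, 23 and 35 and at 63.0, 68.1 and 69.5 in DOX 12, 24 and 36, a log2 fold change of -2.15 ± 0.35 (SE), or -2.51 without DMSO 11. Its adjusted p was 0.0770 by edgeR and 0.000538 by DESeq2, and ran from 3.24e-235 to 0.344 over the alternatives. ANXA1, annexin A1, an anti-inflammatory mediator, went the other way, at 4.89, 3.29 and 3.18 CPM in DMSO and 8.84, 9.81 and 9.39 in DOX. Its log2 fold change was 1.30 ± 0.18 (1.53 without DMSO 11), with an adjusted p of 0.0666 by edgeR and 6.65e-07 by DESeq2 (1.94e-15 to 0.344 over the alternatives). WFS1, which encodes a membrane protein of the endoplasmic reticulum (1.03 ± 0.29, and 1.46 without DMSO 11), and PFKFB2, a regulator of glycolysis (0.44 ± 0.13, and 0.51), were the others called higher. With all libraries, the most expressed of the list passed neither test. GLUL, glutamine synthetase, was at 401 to 459 CPM in DMSO and 464 to 484 in DOX. CXCR4, a chemokine receptor, was at 308 to 328 and 323 to 341. Without DMSO 11 their log2 fold changes were 0.20 and 0.02, and edgeR called GLUL higher (adjusted p of 0.0211) but not CXCR4. EdgeR without DMSO 11 called 7 of the list higher and 10 lower, against 49.4% of all genes called in either direction.

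Of 10 genes known to be repressed by glucocorticoids, 7 were below the filter, among them IL2 and IFNG. TNF, an inflammatory cytokine, was read at 3.72, 1.15 and 1.59 CPM in DMSO 11, 23 and 35 and at 5.16, 4.80 and 5.39 in DOX. DESeq2 called it higher, at 1.25 ± 0.37 on the log2 scale (1.90 without DMSO 11) and an adjusted p of 0.0147, against 0.105 by edgeR and 4.53e-12 to 0.344 over the alternatives. ICAM1, an adhesion molecule, was at -0.25 ± 0.23 (-0.42 without DMSO 11) and was not called. CXCL8, near the floor with 80 counts in all libraries together, was at 2.11 ± 0.68 (1.65 without DMSO 11). Its adjusted p was 0.120 by edgeR, and DESeq2 gave it none.

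**Figure D4:**
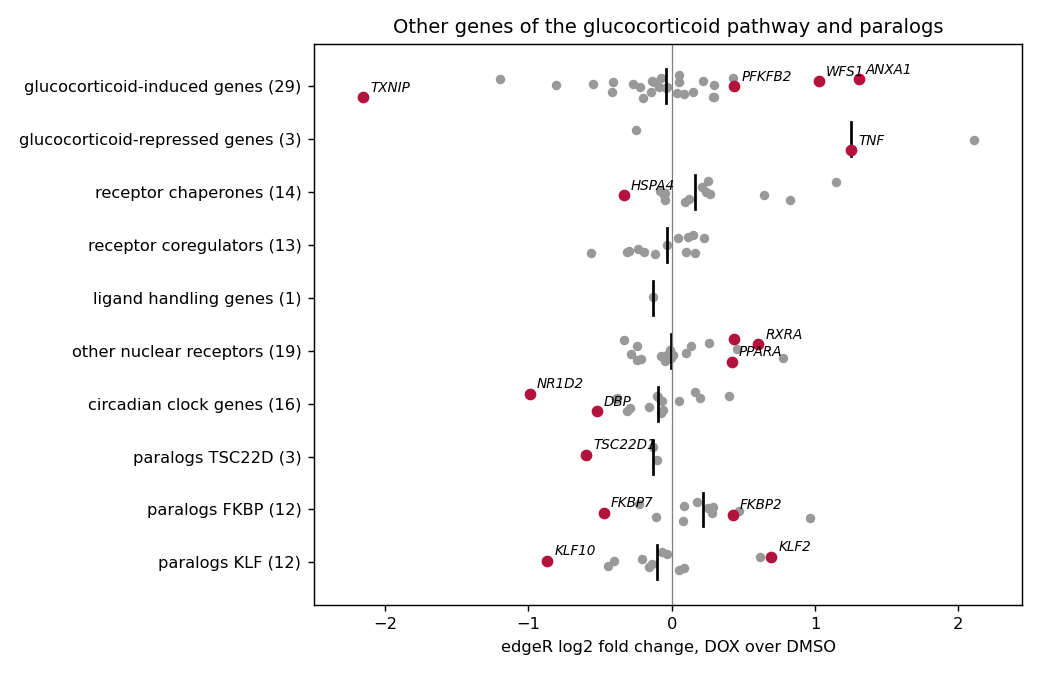
EdgeR log2 fold change of DOX over DMSO (x axis) for the tested genes of 10 lists (rows, number tested in parentheses); grey points are genes, red points those called by DESeq2, most of them named, and black bars list medians. Medians lie between -0.13 and 0.22 for all lists except the 3 tested repressed genes (1.25), and TXNIP is farthest to the left (-2.15).

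Several of the 14 chaperones and cochaperones listed for the receptor were higher in DMSO 11 than in the other controls. Among them were HSPA8, HSP90AA1 and FKBP4, while PPID and STUB1 differed little and HSPA4 was lowest in DMSO 11. The list summed to 3874 and 4006 CPM in DMSO 23 and DMSO 35, to 7724 in DMSO 11 and to 6733 to 7079 in DOX. HSPA8, the constitutive HSP70, was read at 1408 CPM in DMSO 11, 277 in DMSO 23, 281 in DMSO 35, and 1405, 1515 and 1431 in DOX. HSP90AA1 was read at 1484, 534 and 587 CPM in DMSO and 1395, 1371 and 1297 in DOX. FKBP4, the cochaperone that counteracts FKBP5 on the receptor, was read at 551, 305 and 283 CPM in DMSO and 449, 468 and 442 in DOX. DMSO 11 was nearer to the DOX mean for 13 of the 14, against 69.4% of all tested genes. The list's median log2 fold change was 0.17 with all libraries and 0.38 without DMSO 11. DESeq2 called only HSPA4, of the HSP110 family, which was lower (-0.33 ± 0.09, and -0.41 without DMSO 11), against 10.2% of all genes called. EdgeR without DMSO 11 called 9 higher and 1 lower, against 49.4% of all genes called in either direction. Against the other controls, DMSO 11 was thus high in HSPA8, HSP90AA1 and FKBP4 and low in NR3C1, TSC22D3, PER1 and KLF9. Most tested genes (69.4%) also had DMSO 11 nearer to the DOX mean. Whether the chaperone levels had a part in those of the members was not tested.

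**Figure D5:**
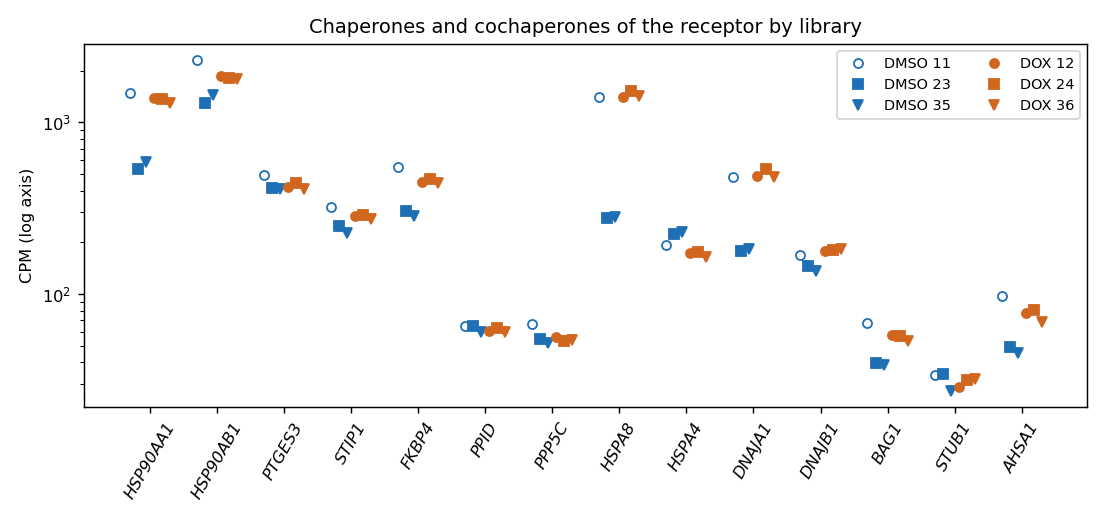
CPM (y axis, log scale) of the 14 chaperone and cochaperone genes of the receptor in each library, DMSO in blue with DMSO 11 as open circles, DOX in orange. DMSO 11 sits with or above the DOX libraries for HSPA8 (1408 CPM), HSP90AA1 (1484) and FKBP4 (551), apart from DMSO 23 and DMSO 35.

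The relatives of the response genes did not all follow them. DESeq2 called 10.2% of all genes, the share to set beside its calls here. Of the 3 other TSC22D genes, TSC22D1, at 87.9, 147 and 139 CPM in DMSO 11, 23 and 35 and 80.1 to 84.4 in DOX, was called lower by DESeq2 (-0.60 ± 0.17, and -0.80 without DMSO 11). TSC22D4 was at -0.10 ± 0.09 (-0.11 without DMSO 11). Of 12 tested FKBP genes other than FKBP5, DESeq2 called FKBP7 lower (-0.47 ± 0.12, and -0.43 without DMSO 11) and FKBP2 higher (0.43 ± 0.12, and 0.46), both immunophilins of the endoplasmic reticulum. FKBP8, next to FKBP4 the most expressed, was at -0.11 ± 0.11 (-0.02 without DMSO 11). Of 12 tested KLF genes other than KLF9, KLF10, a factor induced by TGF-beta, was read at 25.4, 41.5 and 47.2 CPM in DMSO and 19.2, 22.3 and 21.0 in DOX. It was called lower by DESeq2 (-0.87 ± 0.21, and -1.09 without DMSO 11, adjusted p of 0.00261, against 0.0912 by edgeR and 1.15e-22 to 0.344 over the alternatives). KLF2, a T-cell quiescence factor, was called higher (0.70 ± 0.18, and 0.76 without DMSO 11). The most expressed, KLF13 and KLF12, were at -0.14 ± 0.08 and -0.40 ± 0.17 and were not called with all libraries. Without DMSO 11 they were at -0.14 and -0.59, and edgeR called KLF12 lower (adjusted p of 1.50e-06) but not KLF13.

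Among 16 tested clock genes other than PER1, DESeq2 called 2, both lower, against 10.2% of all genes called and 7.05% called lower. The median log2 fold change of the list was -0.10, against -0.0031 over all tested genes. NR1D2, which encodes the repressor REV-ERB beta, was read at 50.6, 91.3 and 99.1 CPM in DMSO 11, 23 and 35 and 40.1, 40.3 and 40.9 in DOX. Its log2 fold change was -0.99 ± 0.22 (-1.24 without DMSO 11), with an adjusted p of 0.0892 by edgeR and 0.000661 by DESeq2 (3.67e-49 to 0.344 over the alternatives). DBP, an output factor of the clock, was at -0.52 ± 0.16 (-0.66 without DMSO 11). The kinases CSNK1D and CSNK1E, which phosphorylate PER proteins and were the most expressed of the list, were at 0.05 ± 0.08 and 0.16 ± 0.10. They were not called with all libraries. Without DMSO 11 they were at 0.06 and 0.27, and edgeR called CSNK1E higher (adjusted p of 0.0022) but not CSNK1D.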

How the data were processed

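Strand-specific paired-end RNA-seq was made from 3 DMSO and 3 DOX samples, per the labels' protocols. Raw counts of reads per gene were deposited. A second deposited table holds the authors' own comparison: per the file headers, the mean signal after normalisation, log2 fold changes, their errors, p-values and the statistic (a score). Per the submitters' processing notes, which give no roles, the build was hg19 and the tools were DESeq2 1.12.4, featureCounts and STAR 2.5.2a. The annotation release and strand setting of the counting are not given in the sources used here.

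Count columns name a group but carry a number found in no label, so each was assigned to a group, not to a numbered replicate. All 92 spike-in rows were 0 and were left out. Genes passing filterByExpr (15949) were scaled by TMM and entered edgeR 4.0.16 (quasi-likelihood F test, robust, group as the only term, R 4.3.3), with Benjamini-Hochberg adjustment at 0.05. Its standard error is the log2 fold change divided by the square root of F. Log2 CPM used a prior count of 2. Exon lengths came from GENCODE 29, matched by gene ID for 96.9% of tested genes, and promoters from RefSeq. No protein sequence was used. Some genes of the lists are not reported here by name.

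Alternatives were DESeq2 1.42.0, voom (limma 3.58.1), 3 other scalings, other filters, a non-robust fit and each library left out. The 5 members, the lists and the list genes were chosen with earlier results of these data known. From each list the genes called by edgeR, or by DESeq2 where edgeR called none, were named up to 4 by smallest p. The 2 most expressed were named with them. HSPA8, FKBP4, PPID, STUB1, CD2 and CXCL8, and the genes named as being below the filter, were named after their values were seen. On simulated counts for this comparison, edgeR (15717 genes) recovered 98.0% of 2-fold and 58.0% of 1.5-fold changes with 12 false calls of 168, and DESeq2 (15949 genes) recovered 100.0% and 75.0% with 35 of 210. The simulation held no library that stood apart as DMSO 11 does.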

Additional observations from a re-analysis of the deposited data

How the results depend on the processing

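The direction of the 5 members' differences was the same under each alternative run. With 1 library left out, by edgeR or DESeq2, the log2 fold changes ran from -0.93 to -0.50 for NR3C1, -2.49 to -1.68 for TSC22D3, -0.34 to -0.24 for FKBP5, -0.33 to -0.043 for PER1 and -1.30 to -0.78 for KLF9. EdgeR called 5 genes in all, 1761 with no filter on low counts, of which 1 was a member, and DESeq2 called 1399. With 1 library left out the calls ran from 0 to 8109, the highest being edgeR without DMSO 11 (DESeq2 6545, and 111 to 184 without another library), and the unadjusted p was under 0.05 for 2273 to 2629 genes in the edgeR fits that left out another library and called 0. Of the pathway genes, 9 were called higher and 7 lower by DESeq2, and 10 and 6 with no filter. With 1 library left out these calls ran from 0 to 33 higher and 0 to 37 lower. The causes were not tested. Leaving out libraries under DESeq2 was added after seeing the data. No paired analysis was possible because the count columns carry none of the labels' replicate numbers. A pairing of neighbouring column numbers would be a guess and was not fitted. Summing all IDs of a symbol changed nothing, since each member has 1. Depth limits KLF9, whose counts are low.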

Other observations

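Of 27 other nuclear receptors listed, 19 were tested, and their median log2 fold change was -0.0044. DESeq2 called 3, all higher in DOX, against 10.2% of all genes called. EdgeR called none, with 3 at an unadjusted p under 0.05, against 26% of all genes. Among those called by DESeq2 were RXRA (0.60 ± 0.16, and 0.80 without DMSO 11) and PPARA (0.42 ± 0.11, and 0.52), partners in lipid sensing. The most expressed, RXRB and NR2C2, were at -0.03 ± 0.08 and -0.33 ± 0.17 and were not called with all libraries. Without DMSO 11 they were at 0.0055 and -0.48, and edgeR called NR2C2 lower (adjusted p of 0.00136) but not RXRB.

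Of the genes that handle the hormone, HSD11B1 and HSD11B2, which interconvert cortisol and cortisone, and ABCB1, a drug efflux pump, were below the filter. H6PD, which supplies the cofactor of HSD11B1, was at 125 to 145 CPM in DMSO and 119 to 127 in DOX. Its log2 fold change was -0.13 ± 0.09 and not called with all libraries. Without DMSO 11 it was -0.18, and edgeR called H6PD lower (adjusted p of 0.0240). None of 13 tested coregulators of the receptor was called by edgeR or DESeq2, against 0.0313% and 10.2% of all genes, with a median of -0.03. By edgeR, 1 was at an unadjusted p under 0.05, against 26% of all genes. Without DMSO 11, edgeR called 3 higher and 6 lower, against 49.4% of all genes called in either direction, with a median of -0.10. The chromatin remodeller SMARCA4 was at 0.23 ± 0.15 with all libraries. Without DMSO 11 it was at 0.42, and edgeR called it higher (adjusted p of 6.24e-05).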
